A study of Arabidopsis thaliana with 4 samples.

Results

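The CBF regulon of cold acclimation was described here by 10 genes, chosen by name from the 37885 genes of the deposited count table. They are the regulators CBF1, CBF2, CBF3 and ICE1 and the cold-regulated genes COR15A, COR15B, KIN1, KIN2, ERD10 and COR47. All 10 were found, and 8 of them were among the 19940 genes that passed the expression filter. The 2 that did not pass, CBF1 and CBF3, are reported with the rest. The samples were Arabidopsis thaliana double mutants, prt6-1hyt1-1, taken as total seedlings at 7 days and grown on half-strength MS agar without sucrose under continuous light and collected without treatment. PRT6 is a ubiquitin ligase of the N-degron pathway, which removes group VII ethylene response factors in the presence of oxygen. All 4 libraries, labelled biological replicates 1 to 4, carry both mutations and were untreated, and libraries of other genotypes were not analysed here. The levels below therefore describe untreated seedlings of this mutant and measure no effect of genotype or temperature.

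CBF1, CBF2 and CBF3 are transcription factors of the AP2/ERF family that cold induces within a short time. ICE1, a bHLH protein made at normal temperature, binds their promoters, and the CBF proteins bind the C-repeat, whose core is CCGAC, in front of cold-regulated genes. Those genes encode protective hydrophilic proteins: COR15A and COR15B act in the chloroplast stroma on membranes, ERD10 and COR47 are acidic dehydrins, and KIN1 and KIN2 are small proteins of little known function.

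The 6 cold-regulated genes share the C-repeat core, and the sequences around it are shown because it is the element that the CBF proteins bind. The window used for them, the 500 bases before the start codon, was chosen after seeing the data, and the shorter window before the annotated gene start held the core in 1 of 10 members. In the 500-base window, CCGAC was found on either strand in 6 of 6 cold-regulated genes and in 0 of the 4 regulators. That makes 6 of 10 members, beside 23.4% of 27443 protein-coding genes. At least 2 matches were found in COR15A and ERD10, and in 4.42% of all these protein-coding genes. The 6 cold-regulated genes were listed as targets of the CBF proteins, so the core in them describes the list and is no independent result. Each site below is given 5′ to 3′ on the strand of the gene, from RefSeq TAIR10.1, with the core in capitals. Its distance is counted from the start codon to the first base of the core.
COR15A, distal site, chr2:17712397-17712417, minus strand, 443 bases: cttgttggCCGACatacattt
COR15A, proximal site, chr2:17712220-17712240, minus strand, 266 bases: tttcatggCCGACctgctttt
COR15B, chr2:17710126-17710146, minus strand, 265 bases: cttgatggCCGACctcttttt
KIN1, chr5:5209806-5209826, plus strand, 178 bases: aatagctaCCGACataaggca
KIN2, chr5:5211773-5211793, plus strand, 185 bases: aaaagctaCCGACataaggca
ERD10, chr1:7089365-7089393, minus strand, 278 bases: ttcatccaCCGACCGACCGACgtaaaaga
COR47, chr1:7085920-7085940, minus strand, 268 bases: ttcatctaCCGACttcaagaa
Within each pair of neighbouring genes the sites lay at nearly the same distance, 266 and 265 bases in the COR15 pair, 178 and 185 in the KIN pair, and 278 and 268 in the dehydrin pair. ERD10 carried 3 overlapping cores where COR47 carried 1.

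The position of the annotated gene start decides whether these sites count as promoter. Of the 7 sites, all but the distal site of COR15A lie within an exon annotated by RefSeq, in front of the start codon. In the 250 bases before the annotated gene start, only COR15A held CCGAC, with 2 matches, beside 12% of all protein-coding genes. The annotated start lay 275 bases before the start codon in KIN1, 560 in COR15B and 1209 in COR47. For COR15B the window before the gene start falls inside COR15A, because only 7 bases separate these genes. The window of COR15A, chr2:17712331-17712580 on the minus strand of TAIR10.1, is shown with both cores in capitals, the first of which reads on the other strand.
COR15A: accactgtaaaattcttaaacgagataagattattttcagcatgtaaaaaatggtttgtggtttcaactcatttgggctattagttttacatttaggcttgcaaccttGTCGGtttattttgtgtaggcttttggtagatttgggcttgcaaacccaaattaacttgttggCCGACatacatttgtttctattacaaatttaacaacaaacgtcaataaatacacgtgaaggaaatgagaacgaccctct

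Other motifs known from cold-responsive promoters were also found by their letters, on both strands. The evening element AAATATCT, read by clock proteins, occurred before the start codon in 7 of 10 members, namely CBF2, CBF3, COR15A, COR15B, KIN1, KIN2 and ERD10, beside 8.27% of all genes. The abscisic acid element core ACGTG occurred in 8 members, beside 34.9% of genes. The E-box CANNTG, the type of site that ICE1 binds, occurred in 7 members, beside 77.1% of genes, and CGCGT, the core of the site for CAMTA proteins, in 3 members, beside 13.4%. A CACGTG palindrome is counted as ACGTG on each strand and as an E-box. In the shorter window before the gene start, the counts were 4 members for the evening element (4.79% of genes), 4 for ACGTG (22.9%), 5 for the E-box (55.3%) and 2 for CGCGT (6.87%). The 4 with the evening element there were CBF1, CBF2, CBF3 and KIN1. That of CBF1, 81 bases before the gene start, lay beyond the 500-base window. A match describes these letters and was not tested as a bound site. CBF2, the CBF gene that varied beyond counting error, held the abscisic acid element core within a palindrome, the core for CAMTA proteins and the evening element in this order from left to right, shown in capitals for chr4:13016236-13016485 on the minus strand.
CBF2: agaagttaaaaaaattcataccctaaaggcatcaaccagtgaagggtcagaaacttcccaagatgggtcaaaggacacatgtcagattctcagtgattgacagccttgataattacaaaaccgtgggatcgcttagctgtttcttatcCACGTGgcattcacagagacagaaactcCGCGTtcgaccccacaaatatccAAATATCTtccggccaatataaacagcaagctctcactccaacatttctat

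**Figure D1:**
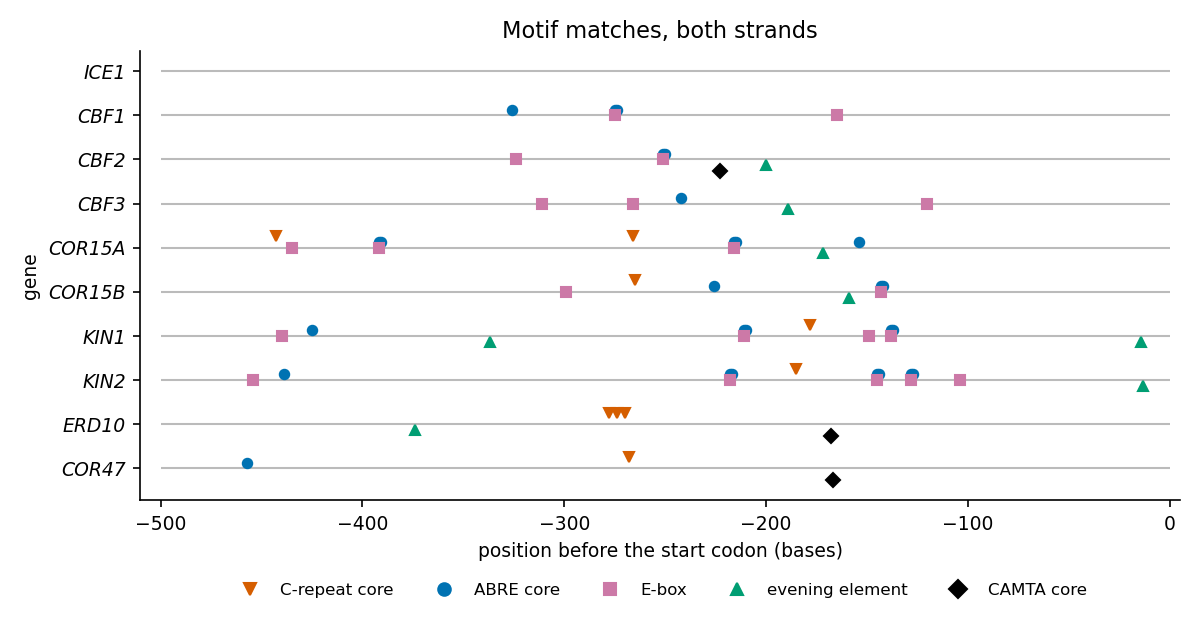
Matches of 5 motifs, on both strands, in the 500 bases before the start codon of each member (x axis, bases; y axis, genes), with 1 symbol per match. The C-repeat core appears in each of the 6 cold-regulated genes and in none of CBF1, CBF2, CBF3 and ICE1.

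The members lie in tandem clusters except ICE1 (AT3G26744, chromosome 3, 9832667 to 9835279, minus strand). CBF2 (AT4G25470, 13015250 to 13016235), CBF3 (AT4G25480, 13018010 to 13019400) and CBF1 (AT4G25490, 13021780 to 13022996) lie in this order on the minus strand of chromosome 4, each as a single exon, with 2 other annotated genes between CBF3 and CBF1. COR15B (AT2G42530) and COR15A (AT2G42540) are adjacent on chromosome 2, KIN1 (AT5G15960) and KIN2 (AT5G15970) on chromosome 5 with 892 bases between them, and COR47 (AT1G20440) and ERD10 (AT1G20450) on chromosome 1 with 1029. Coding sequences of KIN1 and KIN2 were 95% identical, those of the CBF genes 85% to 86.7%, of COR15A and COR15B 82.6%, and of ERD10 and COR47 73.5%. Copies this close could share reads, so it was asked how much of each gene is unique. Of exact 50-base windows within single exons, the share found elsewhere in the genome was 3.95% for CBF2, 2.48% for CBF1 and 0.596% for CBF3. It was 0.166% for KIN2, 0.147% for KIN1 and 0% for the other members. Windows across the joints of exons were not searched, and the joined exons of KIN1 and KIN2 shared a run of 58 bases. Little within any exon is thus identical to another place. How reads with several positions were treated is not given in the sources used here. On the opposite strand, CBF3 overlaps AT4G07385, with 0, 0, 0 and 1 counts, and COR15B overlaps AT2G42520, with 951, 1041, 1175 and 1020 counts. Whether counting used strand is not given, so reads of COR15B and AT2G42520 in their shared stretch may not be separate.

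The 4 libraries held between 24743656 and 26155431 counts, and every pair of libraries differed beyond counting error, by 2137 to 4918 genes. The markers fitted the labelled tissue: leaf markers such as RBCS1A and root markers such as PYK10 were abundant, with summed levels of 38588 to 41377 and 4842 to 5837 CPM, which are counts scaled to library size. The sum of seed storage and late embryo transcripts stood apart in replicate 2. There 13 genes summed to 169 CPM, beside 5.85 to 8.61 CPM in the other libraries. Not every gene of this list did so. EM6 stood at 0.841, 1.12, 0.354 and 0.949 CPM in replicates 1 to 4, and EM1 had 3, 1, 0 and 0 counts. The labels do not say how seedlings were divided between replicates. The p-values below therefore measure the spread between these libraries, which may include technical spread, and fewer cells that express a gene cannot be told apart from less RNA per cell.

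The regulon spanned a wide range of levels, with the dehydrin genes and KIN2 high and the CBF genes lowest. Levels compared between genes are in TPM, transcript abundances scaled to a common total per library, which divide counts by the length of the exons. The 6 cold-regulated genes summed to 480, 498, 438 and 474 TPM in replicates 1 to 4, a mean of 472 ± 25.2 (SD, n = 4). CBF1, CBF2 and CBF3 together summed to 5.10, 2.17, 2.62 and 3.08 TPM, a mean of 3.24 ± 1.29. The sum of the targets was therefore 161 ± 55.4 times the sum of the CBF genes. It ran from 94.1 times in replicate 1 to 229 times in replicate 2. This ratio depends on the length used, and was 294 ± 100.6 with coding length and 222 ± 77.9 without length normalisation. Most of the targets' sum came from the KIN pair, at 196 TPM, and the dehydrin pair, at 267 TPM. COR15A and COR15B together gave 9.55 ± 1.66 TPM, much nearer the sum of the CBF genes. By the mean TPM, KIN2 lay above 95.5% of the genes past the filter, COR47 above 95.3%, ERD10 above 91.2%, ICE1 above 75.3% and KIN1 above 60.2%. For KIN1 this share was 37.3% without length normalisation and 81.3% with coding length. The COR15 genes lay above 25.7% (COR15B) and 21.9% (COR15A), or 46.7% and 41.5% with coding length. CBF2 lay above 9.85%, CBF1 above 2.20% and CBF3 above 0.542%. Against all genes with a count in any library, which include those below the filter, CBF2 lay above 29.6%, CBF1 above 21.5% and CBF3 above 17.5%. The median log2 TPM of the 8 members past the filter was 4.63, and 3.30 with all 10, beside 3.76 for all genes past the filter.

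**Figure D2:**
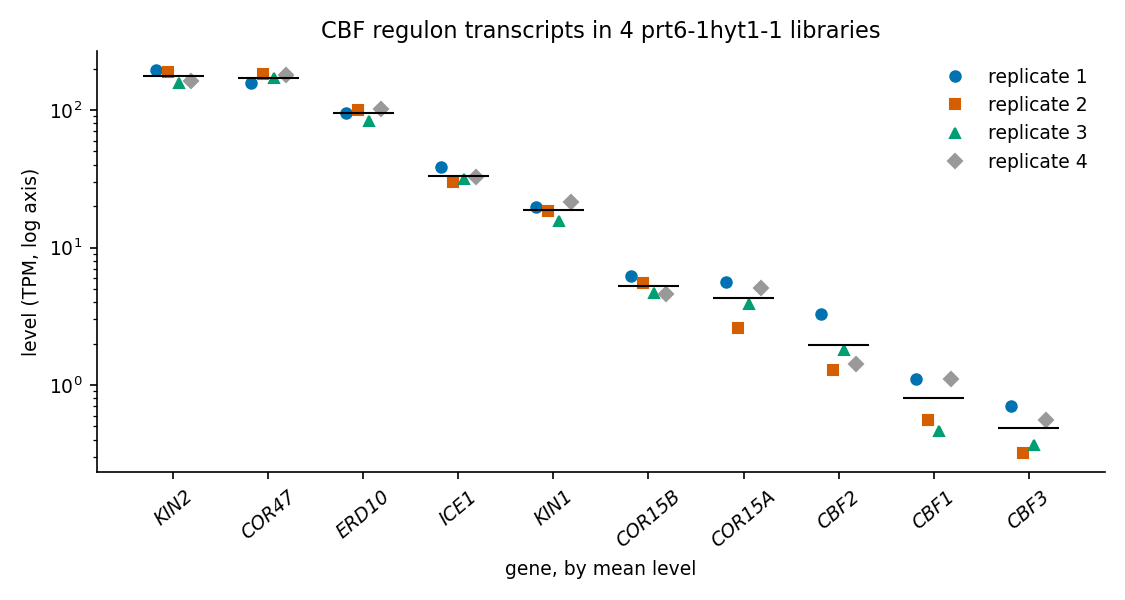
Level of each member in TPM (y axis, log scale) in the 4 libraries (symbols), with the mean as a bar and genes on the x axis in order of the mean. KIN2 and COR47 overlap near 177 and 172 TPM, and CBF3 is lowest at 0.486 TPM.

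Ordered by mean level, 5 of the 9 neighbouring genes had ranges over the libraries that did not overlap. KIN2 and COR47 overlapped, at 158 to 196 TPM and 157 to 182 TPM, and so did COR15B and COR15A, COR15A and CBF2, and CBF1 and CBF3. COR47 stood apart from ERD10, ERD10 from ICE1, ICE1 from KIN1, KIN1 from COR15B, and CBF2 from CBF1. The gap between CBF2 and CBF1 depends on exon length: without length normalisation their ranges overlapped, at 0.810 to 2.04 and 0.354 to 0.841 CPM. The order of KIN2, COR47 and ERD10 rests on gene length: without length normalisation COR47 was first, at 258 ± 18.6 CPM (SD, n = 4), then ERD10 at 99.5 ± 7.37 CPM and KIN2 at 85.5 ± 8.88 CPM. With coding length in place of exon length, KIN1, at 43.5 TPM, stood above ICE1, at 31.6 TPM. The coding length of KIN1 was 201 bases of 829 exon bases, that of COR47 798 of 2320, and that of ICE1 1485 of 2521.

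ICE1, the regulator upstream of the CBF genes, was moderately abundant. It had 1539, 1281, 1335 and 1320 counts in replicates 1 to 4, which is 61.6, 49.4, 52.5 and 52.2 CPM. Replicate 1 was high and the other libraries lay close together. The mean was 53.9 ± 5.32 CPM (SD, n = 4) and 33.2 ± 3.62 TPM. A chi-square test of homogeneity, which compares the spread of counts with counting error, was adjusted by the Benjamini-Hochberg method over 20687 genes with at least 10 expected counts in each library, of which 42.7% passed at an adjusted p of 0.05. ICE1 passed (adjusted p 1.9e-07), as did 63.2% of the genes with a mean of 1000 to 10000 counts, but without replicate 1 it did not (adjusted p 0.387, the highest of 8 alternatives, which began at 1.04e-08).

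The 3 CBF genes were close to silent, and each was highest in replicate 1. CBF2 had 51, 21, 29 and 22 counts, or 2.04, 0.81, 1.14 and 0.87 CPM. Its 95% Poisson interval in replicate 1, from 1.52 to 2.69 CPM, lay above those of replicate 2, which ended at 1.24, and of replicate 4, which ended at 1.32. Replicate 1 was thus set off from replicates 2 and 4 beyond counting error, while replicate 3 overlapped with it. CBF2 passed the chi-square test (adjusted p 0.000869), as did 28.7% of genes with a mean of 10 to 50 counts, at 2.17 times the mean of the other libraries in replicate 1. Without replicate 1 it did not pass (adjusted p 0.574), and its adjusted p over 7 alternatives began at 0.000525.

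CBF1 and CBF3 were lower still, and for them the differences between libraries were not detectable at this depth. CBF1 had 21, 11, 9 and 21 counts, or 0.841, 0.424, 0.354 and 0.830 CPM, so replicates 1 and 4 were alike and above the others. CBF3, with 15, 7, 8 and 12 counts, gave 0.601, 0.270, 0.314 and 0.474 CPM. Replicates 1 and 4 were again the higher libraries. Neither passed the chi-square test (adjusted p 0.0793 for CBF1 and 0.324 for CBF3). The Poisson interval of CBF3 in replicate 1 ran from 0.336 to 0.991 CPM and overlapped with that of replicate 2, from 0.109 to 0.556 CPM. The intervals cover counting error only.

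**Figure D3:**
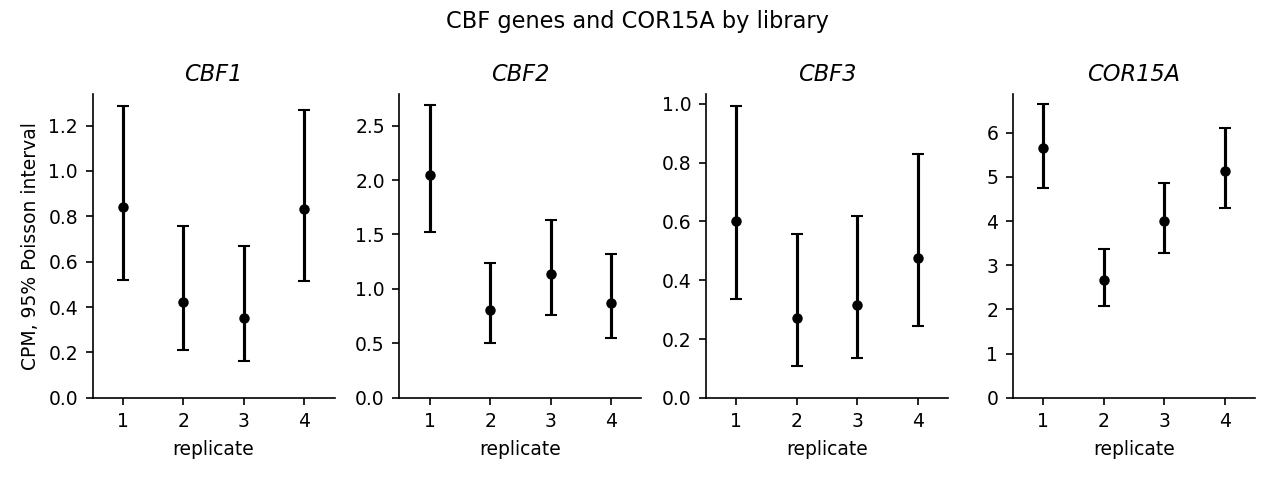
CPM of CBF1, CBF2, CBF3 and COR15A (y axes, each from 0) by replicate (x axis), with exact 95% Poisson intervals as bars. CBF2 is highest in replicate 1 at 2.04 CPM, and COR15A is lowest in replicate 2 at 2.66 CPM.

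Among the CBF copies, CBF2 had the highest TPM in every library, though in replicate 4 it had 22 counts beside 21 for CBF1, whose exons are longer (1217 bases beside 986). The log2 TPM ratio of CBF2 to CBF3 was 2.23, 2.02, 2.29 and 1.34 in replicates 1 to 4, a mean of 1.97 ± 0.43 (SD, n = 4) and 3.92-fold. CBF1 relative to CBF2 stood at -1.56, -1.21, -1.94 and -0.37, a mean of -1.27 ± 0.67, and relative to CBF3 at 0.70 ± 0.26, with 1 sign in 4 of 4 libraries. With 16 sign patterns the exact two-sided sign-flip test cannot go below 0.13, the value each of these ratios reached (adjusted p 0.15 over 6 pairs).

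COR15A and COR15B stood at similar levels but moved differently between libraries. COR15A had 141, 69, 102 and 130 counts, or 5.65, 2.66, 4.01 and 5.14 CPM, and replicate 2 was the lowest, with an interval that ended at 3.37 CPM. COR15B had 156, 147, 124 and 116 counts, or 6.25, 5.67, 4.87 and 4.59 CPM, with the highest values in replicates 1 and 2. COR15A varied beyond counting error (adjusted p 9.53e-06), as did 33.3% of genes with a mean of 100 to 200 counts, with a coefficient of variation of 30.4% where counting alone gives 9.51%. COR15B did not pass (adjusted p 0.0879), at 14.2% beside 8.58%. The difference in variation between the copies was not itself tested. Without replicate 2 COR15A did not pass either (adjusted p 0.0689, the highest of 8 alternatives, which began at 3.62e-06). The log2 ratio of COR15A to COR15B was -0.15, -1.09, -0.28 and 0.16, so its sign differed between libraries (mean -0.34 ± 0.53, exact sign-flip p 0.375).

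KIN1 and KIN2 were the most unequal of the neighbouring copies, although their coding sequences were the most alike. KIN2 had 2337, 2403, 1985 and 1962 counts, or 93.6, 92.7, 78.0 and 77.6 CPM, with replicates 1 and 2 above replicates 3 and 4. KIN1 had 260, 256, 215 and 287 counts, or 10.4, 9.88, 8.45 and 11.3 CPM, with replicate 3 the lowest and replicate 4 the highest. KIN1 thus stood below KIN2 by 9.43-fold on the TPM scale, at a log2 ratio of -3.31, -3.37, -3.35 and -2.92 (mean -3.24 ± 0.22, SD, n = 4, exact sign-flip p 0.13). Both passed the chi-square test, KIN2 at an adjusted p of 1.18e-13 and under all 8 alternatives, KIN1 at 0.0291. Of genes with a mean of 200 to 400 counts, like KIN1, 36.2% passed. Among those with a mean of 1000 to 10000 counts, like KIN2, 63.2% did. The highest library of KIN2 exceeded its lowest by 1.21-fold. KIN1 did not pass without replicate 3 (adjusted p 0.396) or without replicate 4 (0.137), and its alternatives began at 0.0116.

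The dehydrin genes ERD10 and COR47 were abundant and varied little in size. COR47 had 5779, 7123, 6669 and 6675 counts, or 231, 275, 262 and 264 CPM, and replicate 1 was the lowest. ERD10 had 2462, 2726, 2277 and 2653 counts, or 98.6, 105, 89.5 and 104.9 CPM, and replicate 3 was the lowest. The highest library exceeded the lowest by 1.19-fold for COR47 and 1.18-fold for ERD10, and both passed the chi-square test (adjusted p 3.28e-20 and 7.43e-08). At such counts small differences pass: 63.2% of genes with a mean of 1000 to 10000 counts did so, and ERD10 did not pass without replicate 3 (adjusted p 0.0956, the highest of 8 alternatives, which began at 1.35e-09). COR47 passed only narrowly without replicate 1 (adjusted p 0.0425, the highest of its 8 alternatives, which began at 2.07e-20). Both were highest in replicate 2, though ERD10 was nearly level with replicate 4, at 105.2 beside 104.9 CPM. Without replicate 2 COR47 still passed (adjusted p 2.46e-13), as did ERD10 (2.81e-06). Replicate 2 is also the library with the seed storage transcripts, whose part in these levels was not tested. ERD10 was below COR47 in 4 of 4 libraries, at a log2 TPM ratio of -0.86 ± 0.13 (exact sign-flip p 0.13).

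**Figure D4:**
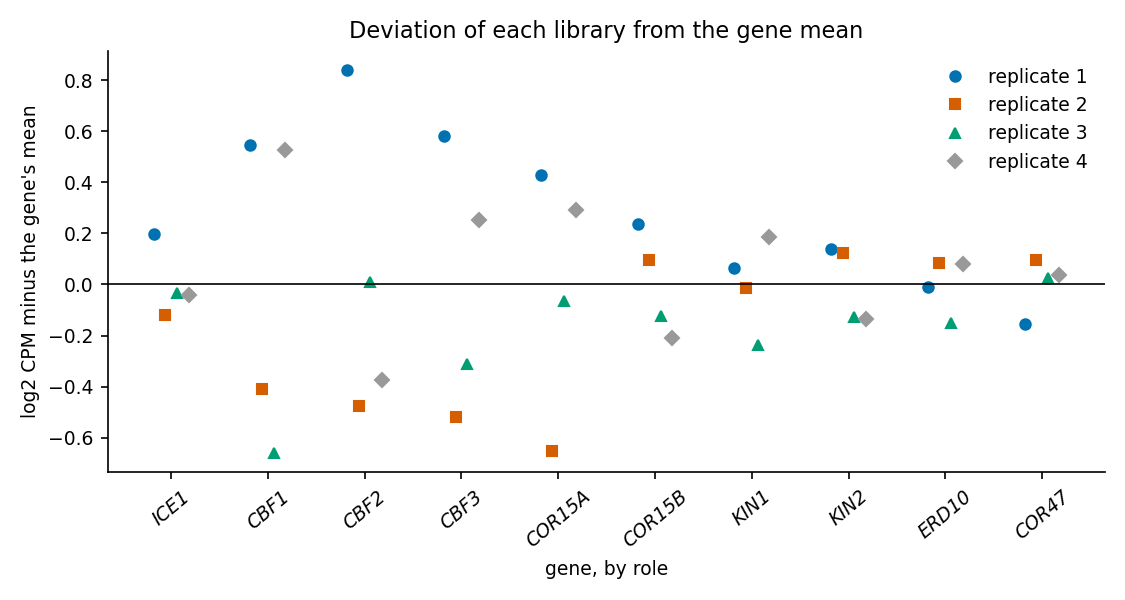
Difference of log2 CPM from the gene's own mean (y axis) for each member (x axis, regulators first), with a symbol per library. Replicate 1 is the highest library for ICE1, the CBF genes, the COR15 genes and KIN2, and the lowest for COR47 at -0.15.

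Across the regulon, 7 of the 10 members varied beyond counting error, beside 42.7% of all genes tested. The 7 were ICE1, CBF2, COR15A, KIN1, KIN2, ERD10 and COR47. Of the 7, 4 had over 1000 counts per library, a depth at which 63.2% of genes passed. The biological coefficient of variation, estimated with edgeR for the 8 members past the filter, exceeded the trend at the same expression in 7, beside 34.1% of all genes past the filter. The largest excesses were those of CBF2, at 0.241 beside 0.184, and COR15A, at 0.183 beside 0.131. For the other 6 the value lay within 0.0120 of the trend. Replicate 1 was the highest library for 7 of 10 members, beside 28.8% of all genes tested, but the members did not move as one. ERD10 and COR47 were highest in replicate 2 (22.7% of genes) and KIN1 in replicate 4 (22.6%), while 25.9% of genes and no member were highest in replicate 3. COR47 alone was lowest in replicate 1 (28.4% of genes). ICE1, COR15A, CBF2 and CBF3 were lowest in replicate 2 (23%), CBF1, KIN1 and ERD10 in replicate 3 (26.3%), and COR15B and KIN2 in replicate 4 (22.2%). On the log2 scale the deviation in replicate 1 ran from 0.84 in CBF2 to -0.15 in COR47.

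**Figure D5:**
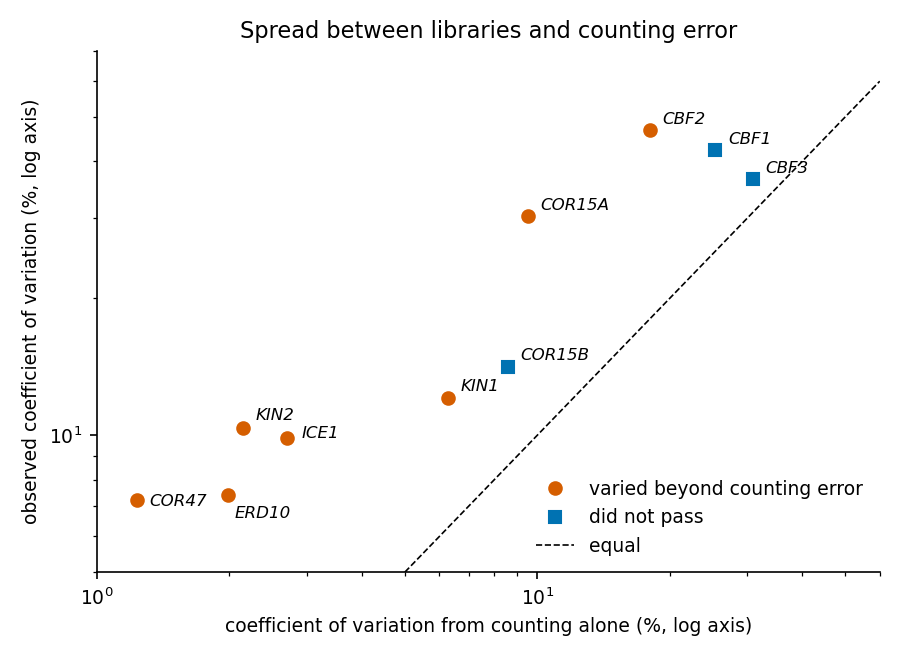
Observed coefficient of variation of CPM between the 4 libraries (y axis, percent, log scale) against that expected from counting alone (x axis, percent, log scale), 1 point per member, with equality as a dashed line. CBF2 lies highest at 46.9%, and CBF3 lies nearest the line at 36.6% beside 30.9%.

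Other genes that act on the CBF genes were measured from listed names. Of 12 activators, 11 could be tested and 8 of them (72.7%) varied beyond counting error. The share was 42.7% of all genes tested and 63.2% of those with a mean of 1000 to 10000 counts, such as LHY and SIZ1. Of the 8 activators that varied, 6 were highest in replicate 1, as were 2617 of the 8828 genes that varied. They included the clock genes LHY, at 3326, 2806, 3044 and 2837 counts (adjusted p 4.12e-15), and RVE8, at 1133, 857, 874 and 947 counts (adjusted p 6.88e-12). The calmodulin-binding activators CAMTA1 and CAMTA2 passed (adjusted p 0.00081 and 0.00043) and CAMTA3 did not (0.839). SIZ1, a SUMO ligase that stabilises ICE1, passed as well (adjusted p 0.0106). LHY was the most abundant activator at 53.6 ± 5.36 TPM (SD, n = 4), ICE2, the paralogue of ICE1, stood at 29.8 ± 2.01 TPM, and CESTA had a single count in all.

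Of 15 repressors of the CBF genes or of ICE1, 7 (46.7%) varied beyond counting error, a share close to the 42.7% of all genes tested. MYB15, a repressor of the CBF genes, was the lowest at 0.784 ± 0.403 TPM (SD, n = 4). With 32, 13, 19 and 11 counts it was highest in replicate 1, as CBF2 was, at 2.28 times the mean of the other libraries (adjusted p 0.00665). The clock repressor PRR5 was lowest there, with 389, 507, 471 and 571 counts (adjusted p 3.79e-06). PHYB, the red light receptor, and PIF3, a light-regulated bHLH repressor, also passed (adjusted p 5.72e-06 and 0.000135), and both were highest in replicate 1. HOS1, the ubiquitin ligase for ICE1, passed with its highest level in replicate 3 (adjusted p 0.0184). EIN3, an ethylene regulator that represses the CBF genes, was the most abundant at 72.4 ± 1.13 TPM and did not pass (adjusted p 0.212).

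Of 5 relatives of the CBF genes, CBF4, DDF1 and DDF2 were at or near 0. CBF4 had 5, 0, 2 and 0 counts, DDF1 had 3, 0, 0 and 3 counts, and DDF2 had 0 counts in all libraries. The DREB2 genes, which act in drought and heat, were higher, DREB2A at 5.65 ± 0.471 TPM (SD, n = 4) and DREB2B at 2.12 ± 0.544 TPM. DREB2B varied beyond counting error (adjusted p 0.0211), 1 of the 2 that could be tested, beside 42.7% of all genes.

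Of 8 other transcription factor genes that respond early to cold, 6 (75%) varied beyond counting error, beside 42.7% of all genes tested, and their highest levels were in different libraries. At the depth of RAV1, CZF1 and MYB73, a mean of 1000 to 10000 counts, 63.2% of genes passed. ZAT10, with 697, 536, 572 and 576 counts (adjusted p 8.46e-06), and CZF1, with 2103, 1781, 2045 and 1694 counts (adjusted p 2.74e-14), were highest in replicate 1. RAV1, with 2550, 2697, 3173 and 2753 counts (adjusted p 3.85e-14), was highest in replicate 3. MYB73, which passed at an adjusted p of 0.000837, was the most abundant at 99.2 ± 5.51 TPM (SD, n = 4). HSFC1 passed at 0.0111. DEAR1 was the lowest at 12.2 ± 1.66 TPM. These genes were thus well above the CBF genes in the same seedlings.

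Other cold-regulated genes outside the 10 were abundant as a group, with a median log2 TPM of 5.75 over 14 genes, beside 3.76 for all genes past the filter. RCI2A, a small membrane protein gene, was the highest at 347 ± 8.41 TPM (SD, n = 4), and the galactinol synthase gene GOLS3 the lowest at 1.19 ± 0.169 TPM. Of the 14, 10 (71.4%) varied beyond counting error, beside 42.7% of all genes tested and 63.2% of those with a mean of 1000 to 10000 counts. RD29A, the gene on which the dehydration-responsive element was defined, had 1166, 970, 857 and 801 counts and was highest in replicate 1 (adjusted p 1.2e-17), like COR413IM1, a gene of the chloroplast inner envelope, with 995, 819, 667 and 835 counts (adjusted p 3.19e-14). ERD14, the acidic dehydrin most like ERD10 and COR47, was lowest in replicate 1, as COR47 was, at 4437, 5341, 5026 and 5036 counts (adjusted p 4.56e-11). COR413PM1 was lowest there too, and ERD4, a membrane protein gene, likewise (adjusted p 9.63e-09 and 1.83e-09).

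Within the dehydrin family of 10 genes, only HIRD11 and ERD14 exceeded COR47 and ERD10 by mean TPM. HIRD11 was far above them at 1139 ± 30.0 TPM (SD, n = 4) and ERD14 stood at 256 ± 14.4 TPM. LTI30 was at 38.2 ± 4.95 TPM, and RAB18, an abscisic acid-induced dehydrin, at 9.22 ± 5.57 TPM. The other 4 genes had 0 to 13 counts per library, and AT4G39130 was the lowest with 0, 0, 2 and 1. All 6 of those that could be tested varied beyond counting error, beside 42.7% of all genes, and none of them was highest in replicate 1, beside 28.8%. At the depth of ERD10, COR47 and ERD14, a mean of 1000 to 10000 counts, 63.2% of genes varied. RAB18 had 94, 321, 131 and 117 counts (adjusted p 2.85e-38) and LEA had 0, 11, 0 and 1 counts, both highest in replicate 2 together with the seed storage transcripts. What part that library's seed transcripts have in the dehydrin levels was not tested.

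For each member that varied, the genes nearest in pattern were taken by the smallest root mean square difference of the 4 log2 deviations, among the genes that varied and had a mean of at least 10 CPM. These likenesses rest on 4 libraries and describe them alone. CBF2 was nearest to CAF1a (AT3G44260), with 821, 504, 584 and 440 counts, at a difference of 0.20 on the log2 scale, followed by AT1G10640 and AT1G72920, both at 0.24. COR15A was nearest to AT1G65950, AT1G51430 and AT1G65370, at 0.18, 0.18 and 0.19. The next genes in order for the others were GG1 (AT3G63420) and AT4G12980 for ICE1, TSB2 (AT4G27070) and RBL (AT3G21060) for KIN1, ftsh7 (AT3G47060) and AT1G74800 for KIN2, AT1G52380 and YLS5 (AT2G38860) for ERD10, and PDC2 (AT5G54960) and AT1G21080 for COR47. The distance grows with a member's own spread and is not comparable between members, and genes at the level of CBF2 and COR15A were below the 10 CPM minimum. The nearest gene of the other members lay within 0.016, which paired ICE1 with AT3G04230, KIN1 with AT3G02190, KIN2 with AT4G14385, ERD10 with SHM4 (AT4G13930) and COR47 with AT1G59960.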

How the data were processed

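Poly(A) RNA of 4 seedling samples was sequenced from directional libraries on a NextSeq500, per the labels' protocols. The authors deposited raw counts of reads per gene, made with HISAT2 2.1.0 and featureCounts 1.6.0 on TAIR10, per the submitters' processing notes. Annotation release, strand and multi-mapping settings were not given in the sources used here. The count columns carry hup40 in place of hyt1 and were matched to samples by prt6-1 and replicate number. The genotype in the title of replicate 4 has 2 characters exchanged and was read as the same.

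RefSeq TAIR10.1 supplied positions, exon lengths and sequences. Of the gene identifiers, 37882 matched it and 3 did not. It is not the build the submitters name, and no counts were assigned by it. TPM used the count plus 0.5 over merged exon length. CPM used TMM-scaled library sizes (edgeR 4.0.16, R 4.3.3), and the expression filter and the intercept-only dispersion fit were edgeR's. With 1 group, no quasi-likelihood contrast exists, so counts were tested for homogeneity by chi-square over all genes with at least 10 expected counts, Benjamini-Hochberg adjusted. The test was checked on simulated counts. Ratios of pairs used an exact sign-flip test. Coding sequences were aligned globally with Biopython 1.88, in place of the planned protein alignment. Sequence windows of 250 bases before the gene start were planned, and the 500 bases before the start codon were added after seeing the data.

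The members, lists and tests were chosen with earlier results of these data known. The text names all members, the highest and lowest of each other list, and up to 5 genes per list that varied, by smallest p, with further genes named after their values were seen. The reference genes are listed under other observations. Alternatives were library sizes by plain totals or DESeq2 1.42.0 size factors, other minimum counts, other lengths, a pseudocount of 2 and leaving out each replicate.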

Additional observations from a re-analysis of the deposited data

Results flagged for a closer look

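In 32 groups of 4 values (members, pairs, and sums over members and lists), 3 had a library far from the others, its gap to the nearest being above 0.829 of the whole range. Chance flags about 1 in 20 groups of independent, normally distributed values. These groups share genes with each other, so that rate is only a rough guide to the number flagged. The log2 TPM ratio of KIN1 to KIN2 was -2.92 in replicate 4, beside -3.37 to -3.31 in the others. The summed level of the dehydrin family was 1332 CPM in replicate 1, beside 1419 to 1428 CPM in the others. The summed level of seed storage and late embryo genes was 169 CPM in replicate 2, beside 5.85 to 8.61 CPM in the others.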

How the results depend on the processing

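The count of members that varied beyond counting error was 7 of 10 with plain library totals (44.2% of all genes tested) and DESeq2 size factors (42.8%). It was also 7 of 10 with at least 1 expected count (39%), and 6 of the 7 testable with at least 50 (45.5%). The edgeR coefficient of variation exceeded the trend in 7 of the 8 members past the filter, beside 34.1% of genes. That compares a gene with others of like expression and is no test against counting error. Without replicate 1, 5 of 9 members tested passed, beside 26.5% of all genes tested. Without replicate 2 these were 6 of 10 and 35.2%, and without replicate 3 they were 5 of 10 and 30.8%. Without replicate 4 they were 6 of 9 and 35.8%. Leaving out each replicate gave 5490 to 7387 genes in all, beside 8828 (42.7%) and 7 of 10 members with every library. The lowest, 5490, was without replicate 1, beside 6373 to 7387 without any other library, and the cause was not tested. Of 75 alternatives for single members, 69 kept their side of the threshold and 6, all from a replicate left out, lost it, as given beside the genes. The median TPM percentile of the members, 43.0, was 30.8 without length normalisation, 60.9 with coding length and 55.8 against all genes with a count. The ratio of the summed targets to the summed CBF genes was recomputed under settings chosen after seeing the data. It lay between 139 and 184 with each replicate left out. No pair ratio changed sign on average under any alternative run. With the window before the start codon, chosen after seeing the data, the C-repeat core was in 6 members in place of 1, ACGTG in 8 in place of 4, and the evening element in 7 in place of 4. No paired analysis was possible because there is only 1 group. Depth limits the CBF genes most, at 7 to 51 counts per library.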

Other observations

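Of 8 genes often used as references in Arabidopsis, 3 (37.5%) varied beyond counting error, a share close to the 42.7% of all genes tested. They were the abundant ACT2, UBQ10 and EF1A (AT5G60390). ACT2 was lowest in replicate 1, as COR47 was, at 13615, 16025, 15643 and 15516 counts (adjusted p 1.07e-31). UBQ10 was lowest there too, with 29030, 35069, 32860 and 30754 counts (adjusted p 2.69e-89). EF1A was highest of the list at 1110.5 ± 41.4 TPM (SD, n = 4) and SAND (AT2G28390) lowest at 23.4 ± 1.24 TPM. Their median biological coefficient of variation was 0.0572, beside 0.0840 for the 8 members past the filter and 0.0807 for all genes past it.

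Among root markers, the iron uptake genes IRT1 and FRO2 were lowest in replicate 3, with 2411 and 1379 counts. IRT1 had 3683 to 4054 counts in the other libraries. The other root marker, PYK10, was lowest in replicate 1 at 4583 CPM and stood at 5053 CPM in replicate 3.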
